A study of Homo sapiens with 6 samples.

Results

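The synaptotagmins and their relatives form a family of membrane proteins, and 9 of its genes were followed here among the 34486 genes of the tables: the synaptotagmins SYT12, SYT1, SYT7, SYT8 and SYT11, the synaptotagmin-like genes SYTL1 and SYTL2, and the extended synaptotagmins ESYT1 and ESYT2. They were chosen by family and by measured values of the very comparison described, in which SYT12 was already known to be higher after PDCD4 silencing, so the differences between groups are given for them as a description with no p-value. Where a member is said to lie past a threshold, that restates the values that chose it and supports nothing. Transcripts were summed to genes, and 8 of the 9 members passed the filter on low counts and entered the fit over 13047 genes. SYT11 did not pass.

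Synaptotagmins carry tandem C2 domains, modules that bind phospholipids and, in many members, calcium, and they are best known for triggering the fusion of vesicles with the plasma membrane in neurons and endocrine cells. Several members lack the residues that coordinate calcium and are called atypical. Synaptotagmin-like proteins bind RAB27 on secretory vesicles through an N-terminal domain, and extended synaptotagmins sit in the endoplasmic reticulum, where they tether it to the plasma membrane and transfer lipids. In epithelial cells such proteins are known from granule and lysosome secretion, repair of the plasma membrane and membrane contact sites.

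RNA came from MCF10A, an immortalised, non-tumorigenic line of human breast epithelial cells of wild-type genotype, grown in both groups with horse serum, epidermal growth factor, insulin, hydrocortisone and cholera toxin. Cells were reverse-transfected for 48 h with 10 nM of siRNA, in 3 libraries with ON-TARGETplus siRNA against PDCD4 (siPDCD4) and in 3 libraries with control siRNA (siCT). The comparison asked which RNAs differ in level once PDCD4, an RNA-binding protein that inhibits the helicase eIF4A, is silenced. A single cell line and a single siRNA reagent against PDCD4 were used, and since the labels do not say whether replicates were separate cultures, p-values measure only the spread between libraries, which may be technical.

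Total estimated counts ranged from 13410441 to 21828931 per library. PDCD4 itself stood at 90.4, 89.0 and 61.1 CPM in the siCT libraries 1, 2 and 3 (CPM, counts scaled to a common library size and corrected for transcript length) and at 9.15, 7.43 and 8.62 CPM after silencing, with a log2 fold change of -3.25 ± 0.17 (SE). The siCT replicate 3 library had the lowest total and the lowest share of counts in protein-coding genes (81.1%, against at most 92.1%), and it stood apart on the first principal component. In either direction 56 genes, 0.429% of those tested, passed a false discovery rate (FDR) of 5%, and 22 of them, 0.169% of those tested, were higher in siPDCD4. The epithelial labels were matched by marker genes. The summed TPM (a level per transcript length, scaled to the same total in each library) of 10 epithelial and basal markers lay at 2317 to 2747 in siCT and 2211 to 2655 in siPDCD4, whereas 10 neuroendocrine and neuronal markers summed to 2.17 to 3.03 and 2.54 to 2.75 TPM, with INSM1 and STMN2 at 0 in all 6 libraries.

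SYT12 was the member that changed. It encodes an atypical synaptotagmin and lies on chromosome 11 at chr11:67006778-67050863, plus strand (GRCh38). In siCT replicates 1, 2 and 3 its level was 14.7, 14.5 and 13.8 CPM. In siPDCD4 replicates 1, 2 and 3 it was 39.2, 38.5 and 53.4 CPM. The siCT libraries thus lay close together, siPDCD4 replicate 3 was the highest, and the groups were far from overlapping. The mean rose from 14.3 ± 0.481 to 43.7 ± 8.42 CPM (SD, n = 3 per group), 3.05 times as high, and single siPDCD4 libraries reached 2.68 to 3.72 times the siCT mean. The log2 fold change was 1.60 ± 0.14 (SE), which is the difference that chose the gene. In bulk RNA a higher level per cell and more cells with SYT12 RNA cannot be told apart. These levels rest on 271, 274 and 191 estimated counts in siCT and on 689, 570 and 783 in siPDCD4. Leaving out any one library, including siCT replicate 3, left the log2 fold change of SYT12 between 1.45 and 1.69.

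The haematopoietic marker CD14 moved in the same direction as SYT12, with 4.29 to 5.68 TPM in siCT and 6.73 to 8.43 TPM in siPDCD4. The summed level over 4 haematopoietic markers was 5.41 to 6.72 TPM in siCT and 7.73 to 9.40 TPM in siPDCD4, with CD3E at 0 in every library. LYZ, the other marker with a sizeable level, was at 0.850, 1.01 and 1.74 TPM in siCT and at 0.934, 0.892 and 0.925 TPM in siPDCD4, and PTPRC overlapped at 0.0181 to 0.0600 TPM. The 4 endothelial markers summed to 0.194 to 0.280 TPM and 0.244 to 0.664 TPM. Of these, PECAM1 stood at 0.137 to 0.143 TPM in siCT and 0.171 to 0.606 TPM in siPDCD4, and the others overlapped. Of the neuroendocrine and neuronal markers, RBFOX3 stood at 0.0621 to 0.118 TPM in siCT and 0.203 to 0.210 TPM in siPDCD4, and the others overlapped. The part of these lists in the SYT12 result was not tested.

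**Figure D1:**
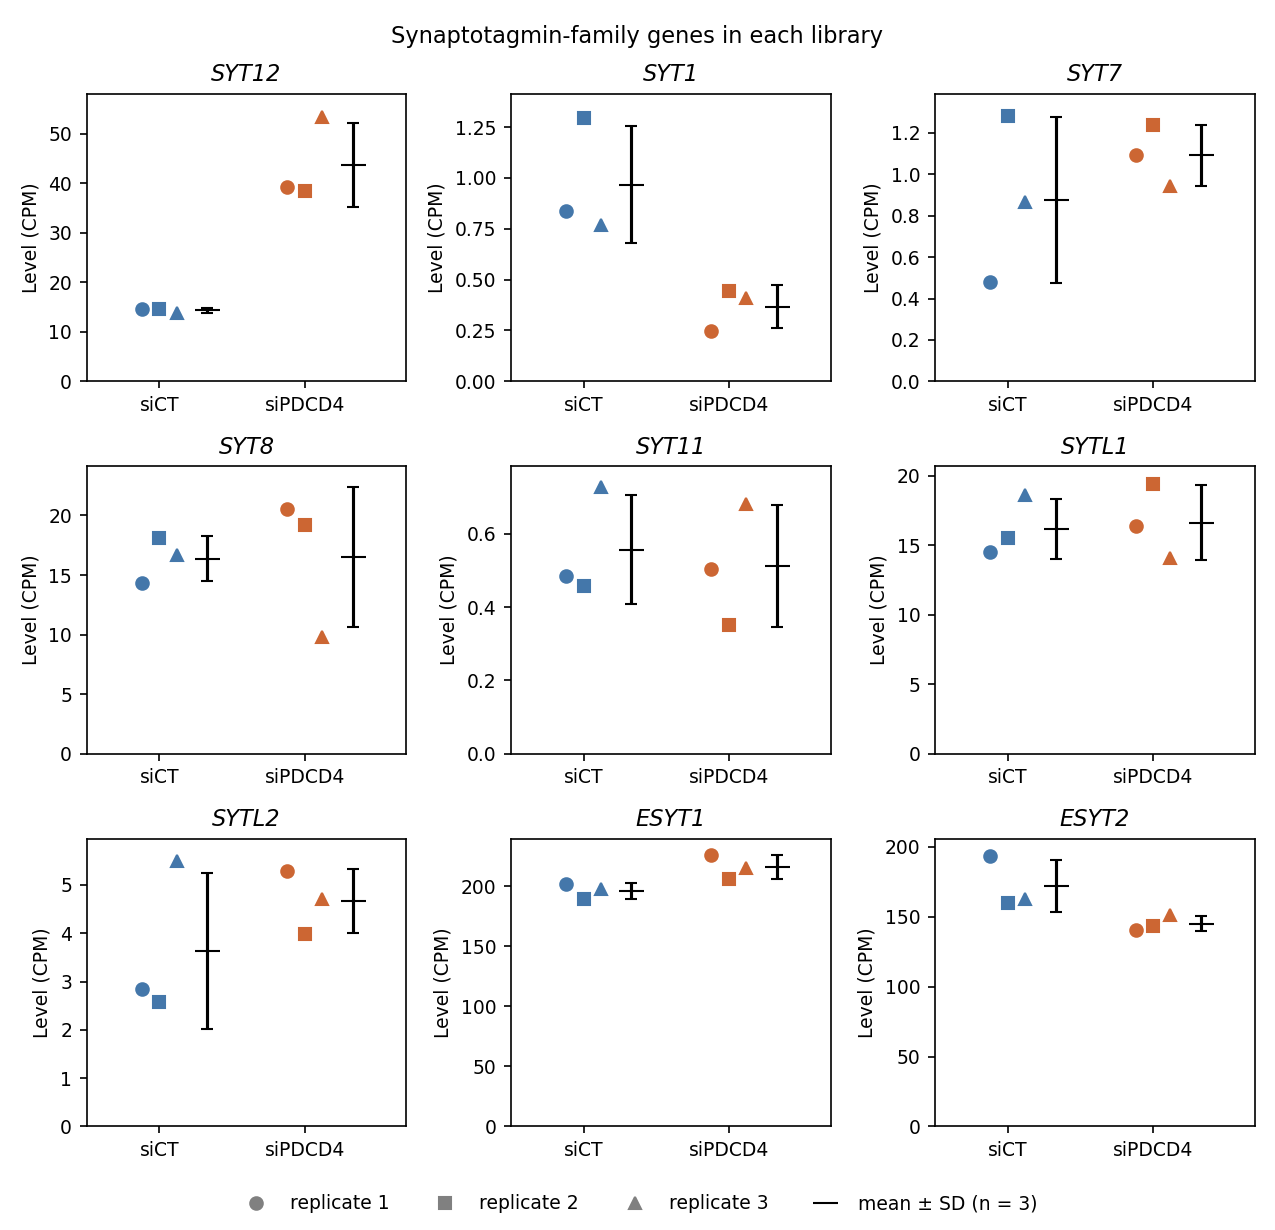
Level in CPM (y axes from 0) of the 9 family genes in the siCT (blue) and siPDCD4 (orange) libraries, with symbols for replicates and the mean ± SD (n = 3) in black. SYT12 lies at 13.8 to 14.7 CPM in siCT and 38.5 to 53.4 CPM in siPDCD4, and the groups of SYT1, ESYT1 and ESYT2 are also apart but by less in CPM.

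Of the 8 members in the fit, 1 passed the FDR threshold, SYT12, beside 0.429% of all genes tested. In 4 of the 8 the CPM ranges of the groups did not overlap, beside 13.9% of all genes tested: siPDCD4 was above siCT for SYT12 and ESYT1 (6.81% of all genes) and below it for SYT1 and ESYT2 (7.14% of all genes). Because the members were picked from this comparison, nothing is read from these shares. A log2 fold change above 0 was seen in 6 of the 8, and their median was 0.09, against -0.0055 over all genes tested.

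The counts of SYT12 came almost wholly from few of its 7 listed transcripts. The leading one, SYT12-205, has 8 exons and 3722 bases, begins at chr11:67023134 and codes for 421 amino acids. It held 218, 240 and 144 counts in siCT and 583, 507 and 686 counts in siPDCD4, or 10.8, 13.9 and 11.1 CPM against 33.0, 35.6 and 42.5 CPM (here without length correction). Its log2 fold change was 1.63 ± 0.16 (SE), close to that of the whole gene.

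SYT12-206, which the annotation lists as a retained intron without a coding sequence, has 2 exons and 6028 bases. It held 30.4, 32.3 and 38.0 counts in siCT and 53.5, 48.1 and 59.2 counts in siPDCD4, with a log2 fold change of 0.69 ± 0.34 (SE). It lay higher in each siPDCD4 library than in any siCT library, but barely. Without length correction siCT replicate 3 stood at 2.93 CPM and siPDCD4 replicate 1 at 3.06 CPM. The difference was smaller than that of the coding transcript. SYT12-203, which carries the same 421 codons but starts from another first exon, was spread from 0 to 16.8 counts in siCT and from 10.3 to 37.8 counts in siPDCD4, so that the groups overlapped. SYT12-201, with the same 421 codons and 11 exons, had reads in siPDCD4 replicate 1 alone.

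The share of the leading transcript in the gene was less clearly apart. SYT12-205 held 81.0 ± 6.12% of the counts of SYT12 in siCT and 87.1 ± 2.23% in siPDCD4 (SD, n = 3), and the ranges of 75.3% to 87.4% and 84.6% to 89.0% overlapped. By TPM, which weighs transcripts by length, its share was 75.3 ± 10.1% in siCT and 76.9 ± 5.88% in siPDCD4. The retained intron SYT12-206 held 14.3 ± 4.86% of the counts in siCT and 7.92 ± 0.458% in siPDCD4. Its ranges of 11.2% to 19.9% and 7.57% to 8.44% did not overlap, and the highest share was that of siCT replicate 3. By TPM its share was 5.48% to 12.2% in siCT and 3.75% to 4.78% in siPDCD4. Salmon shares a read among overlapping transcripts, so each of these counts is an estimate. No transcript of any gene, the silenced PDCD4 included, passed an FDR of 5% in edgeR in the fit over 47375 transcripts. Of these, 1473 had an unadjusted p under 0.05. The lack of calls is therefore not read as a lack of change, and no other tool was run on transcripts.

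**Figure D2:**
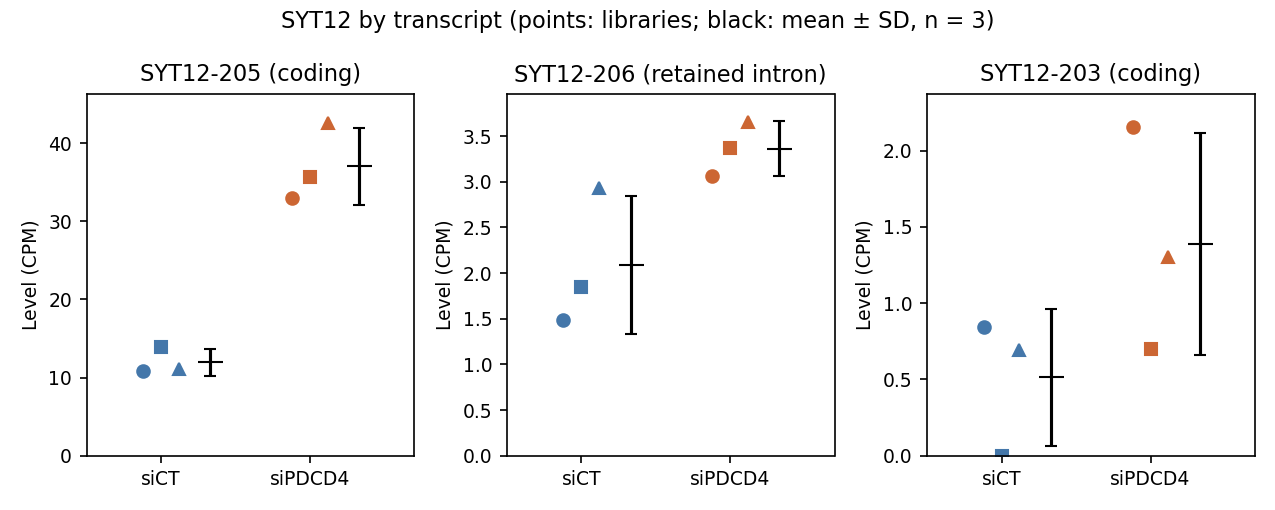
Level in CPM without length correction of the 3 SYT12 transcripts with enough counts for the fit, by group, with one point per library and the mean ± SD (n = 3) in black. The coding SYT12-205 carries most of the level in every library and lies at 10.8 to 13.9 CPM in siCT and 33.0 to 42.5 CPM in siPDCD4.

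Levels were compared between genes per length, in TPM. In siCT the order was the same in all 3 libraries: ESYT1 at 49.5 ± 0.715 TPM, ESYT2 at 31.0 ± 2.85, SYT8 at 12.4 ± 1.86, SYTL1 at 7.23 ± 0.878, SYT12 at 4.0 ± 0.250, SYTL2 at 1.72 ± 0.716, SYT1 at 0.459 ± 0.156, SYT7 at 0.278 ± 0.137 and SYT11 at 0.0981 ± 0.0246 (SD, n = 3). Neighbours in this order had separate ranges apart from SYT1 and SYT7, whose ranges overlapped. The extended synaptotagmins were thus the most abundant members and the neuronal calcium sensors among the least.

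In siPDCD4, SYT12 reached 12.4 ± 2.28 TPM and its mean passed that of SYTL1 (7.54 ± 1.24 TPM) to stand next to SYT8 (12.7 ± 4.57 TPM). The ranges of SYT12 and SYT8 overlapped there. The ratio of SYT12 to SYT8 in TPM was 0.377, 0.297 and 0.305 in siCT and 0.702, 0.740 and 2.00 in siPDCD4, in the order of the replicate numbers. The value of siPDCD4 replicate 3 combined the highest SYT12 with the lowest SYT8 of the series. SYT12 made up 26.3, 21.5 and 22.4% of the summed TPM of the 5 synaptotagmins among the members in siCT, and 40.4, 41.5 and 64.9% in siPDCD4. Other synaptotagmins with reads, such as SYT15 and SYT15B, are not in that sum. That sum itself was 17.2 ± 2.27 TPM in siCT and 25.7 ± 2.35 TPM in siPDCD4 (SD, n = 3).

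**Figure D3:**
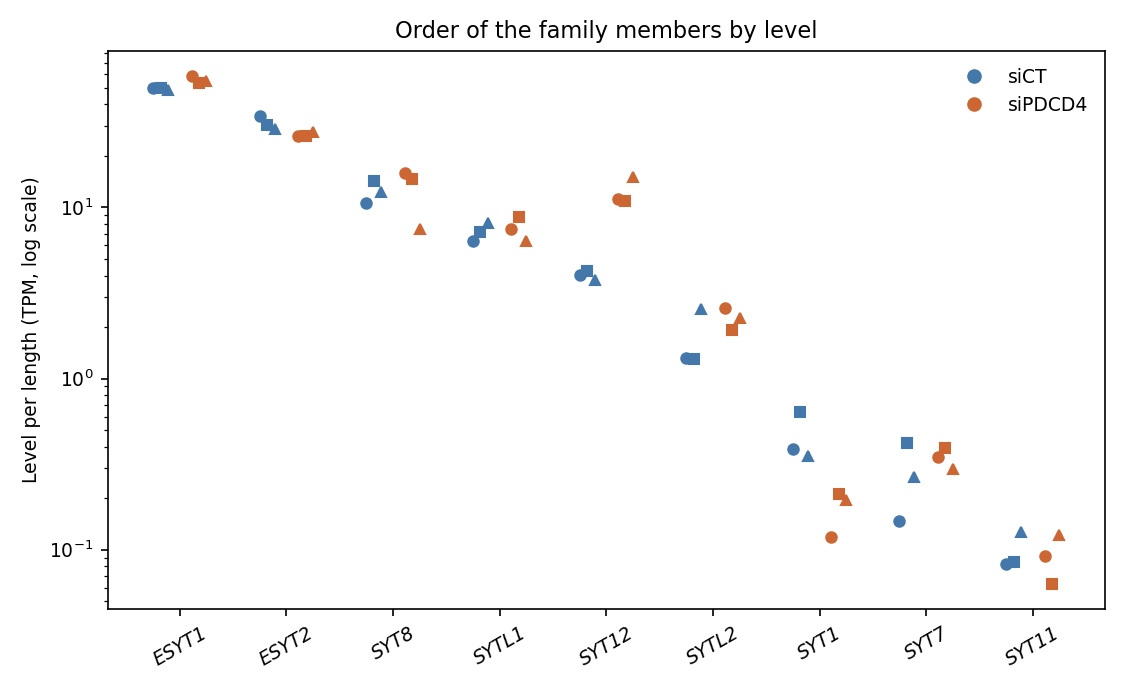
Level per length in TPM (log scale) of the 9 family genes in each siCT (blue) and siPDCD4 (orange) library, ordered by their mean in siCT, with circles, squares and triangles for replicates 1, 2 and 3. SYT12 moves from 4.0 TPM, below SYTL1, to 12.4 TPM, beside SYT8.

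SYT8 is an atypical synaptotagmin, and its gene spans chr11:1828307-1837521. Its single listed transcript covers chr11:1834990-1837521. SYT8 stood at 14.4, 18.1 and 16.6 CPM in siCT and at 20.6, 19.2 and 9.83 CPM in siPDCD4. siPDCD4 replicates 1 and 2 were above every siCT library and replicate 3 was below all of them, so the log2 fold change was 0.01 ± 0.25 (SE). The difference in SYT8 is therefore not resolved at this spread, and its direction depended on single libraries.

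SYT1, the calcium sensor of fast synaptic release in neurons, was measured from few counts. It lies at chr12:78863993-79452008, and 15, 17 and 10 estimated counts in siCT stood against 10, 3 and 9 in siPDCD4, 42 against 22 in all. In length-corrected CPM the values were 0.838, 1.30 and 0.768 in siCT and 0.246, 0.445 and 0.410 in siPDCD4. The siPDCD4 libraries were all below the siCT libraries, and the log2 fold change was -1.50 ± 0.45 (SE). The length correction added to this difference: the average transcript length assigned to SYT1 ranged from 891 to 4304 bases between libraries, and without the correction the log2 fold change was -0.88 ± 0.42.

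SYT7, a calcium sensor of high affinity known from lysosome exocytosis and membrane repair, lies at chr11:61513714-61581148 on the minus strand. It held 17, 16 and 2 counts in siCT and 32, 29 and 25 in siPDCD4, 35 against 86 in all, so that by raw counts every siPDCD4 library was higher. In length-corrected CPM, however, the values were 0.482, 1.28 and 0.868 against 1.09, 1.24 and 0.944, and the groups overlapped. The log2 fold change was 0.42 ± 0.43 (SE) with the length correction and 1.40 ± 0.42 without it.

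The average length assigned to SYT7 was 4841, 2026 and 529 bases in siCT and 4652 to 4659 bases in siPDCD4. In siPDCD4 all its counts lay in SYT7-201, a coding transcript of 4854 bases. In siCT replicate 3 its 2 counts lay in SYT7-207, a transcript of 723 bases. In siCT replicate 2, 9 of its 16 counts lay in SYT7-201 and 7 in SYT7-209. The log2 fold change was -0.11 without siCT replicate 1, 1.01 without siCT replicate 2 and 0.44 without siCT replicate 3, so its size and sign were not settled at these counts.

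SYT11, an atypical member known in neurons from vesicle trafficking, lies at chr1:155859567-155885199. Its level was 0.484, 0.457 and 0.728 CPM in siCT and 0.505, 0.350 and 0.681 CPM in siPDCD4, from 5 to 11 counts per library. The groups overlapped, and no fold change was fitted at this depth.

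SYTL1 and SYTL2 encode RAB27 effectors. SYTL1 (chr1:27342020-27353937) stood at 14.5, 15.5 and 18.6 CPM in siCT and 16.4, 19.4 and 14.1 CPM in siPDCD4, with a log2 fold change of 0.04 ± 0.16 (SE). SYTL2 (chr11:85694224-85811159, minus strand) stood at 2.85, 2.57 and 5.50 CPM and at 5.30, 3.99 and 4.71 CPM, with a log2 fold change of 0.39 ± 0.30, which was 0.24 without siCT replicate 1, 0.19 without siCT replicate 2 and 0.78 without siCT replicate 3. Both genes overlapped between groups, and for SYTL2 the highest of all 6 values was that of siCT replicate 3.

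Much of the signal of both genes came from transcripts listed as retained introns. These held 47.7% to 60.1% of the SYTL1 counts and 42.6% to 69.4% of the SYTL2 counts over the 6 libraries, compared with 0.218% to 1.22% for ESYT1. By counts over the 6 libraries the leading transcript of both genes was a retained intron, SYTL1-203 and SYTL2-206. SYTL1-203 held 17.3% to 28.7% of the SYTL1 counts. The coding part of SYTL1 was 44.6 ± 5.83% in siCT and 47.7 ± 4.02% in siPDCD4, which differed by less than the spread between libraries.

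Within SYTL1, SYTL1-201 was listed at 0 counts in all siCT libraries and at 20.0, 44.6 and 31.8 counts in siPDCD4. It differs from the coding transcript SYTL1-210 by 36 bases in length and 12 codons. SYTL1-201, SYTL1-210 and SYTL1-211 together held 76.6, 98.6 and 68.9 counts in siCT and 85.0, 91.4 and 75.2 counts in siPDCD4, and these sums overlapped. The difference in SYTL1-201 was thus seen in the division of reads among the 3 transcripts, not in their sum.

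The extended synaptotagmins were the best measured members, with 1980 to 4179 counts per library each. ESYT1, a calcium-regulated tether between the endoplasmic reticulum and the plasma membrane (chr12:56118250-56144674), stood at 201, 189 and 197 CPM in siCT and at 226, 206 and 215 CPM in siPDCD4. The groups did not overlap, with a log2 fold change of 0.14 ± 0.08 (SE). Its leading transcript, ESYT1-202, held 89.4% to 92.4% of its counts in every library.

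ESYT2, a tether of the same contacts (chr7:158730995-158830253, minus strand), stood at 193, 160 and 163 CPM in siCT and at 141, 143 and 151 CPM in siPDCD4. The siCT mean was 172 ± 18.5 CPM and the siPDCD4 mean 145 ± 5.35 CPM (SD, n = 3), and the log2 fold change was -0.25 ± 0.09 (SE). The lowest siCT library exceeded the highest siPDCD4 library by a small margin. The siCT replicate 1 library was the highest, and without it the log2 fold change was -0.16. Without the length correction it was -0.35, and ESYT2 then lay past an FDR of 5%. Its difference was opposite in sign to that of ESYT1.

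The counts of ESYT2 moved widely between transcripts from library to library. ESYT2-201 held 58.3, 48.2 and 75.5% in siCT and 8.68, 72.5 and 56.2% in siPDCD4, and ESYT2-206 held 17.6, 26.7 and 0% in siCT and 57.7, 0 and 12.6% in siPDCD4. These swings occurred within both groups. The transcripts are 5960 and 5957 bases long, and their sum was far steadier, at 75.9, 75 and 75.5% in siCT and 66.4, 72.5 and 68.8% in siPDCD4. The summed share was lower in every siPDCD4 library than in any siCT library.

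**Figure D4:**
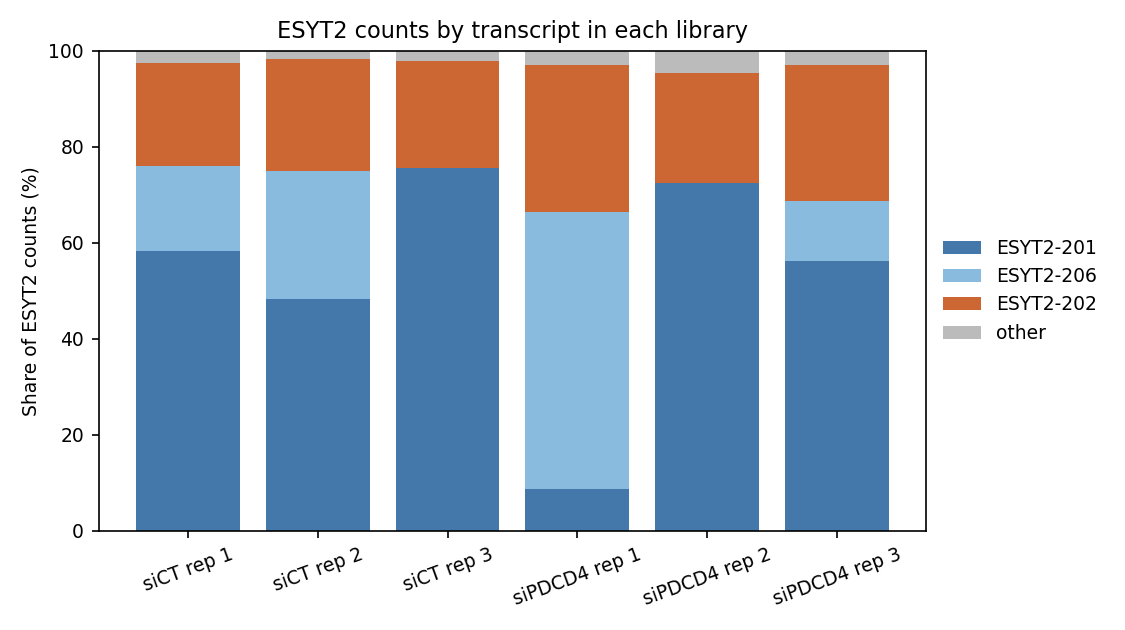
Share of the ESYT2 counts (%, y axis from 0 to 100) held by each of 3 coding transcripts and by the rest, as stacked bars for the 6 libraries. ESYT2-201 and ESYT2-206 trade places between libraries of the same group, whereas their sum stays between 66.4% and 75.9%.

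Of 17 further genes of the synaptotagmin families, 7 had enough counts for the fit. None passed an FDR of 5% in edgeR (beside 0.429% of all genes tested), DESeq2 or limma-voom. An unadjusted p under 0.05 in edgeR was seen for 1, ESYT3, from which nothing is read without the share over all genes. ESYT3, the third extended synaptotagmin, stood at 1.82, 1.45 and 2.24 CPM in siCT and at 3.57, 3.13 and 3.81 CPM in siPDCD4 (log2 fold change 0.94 ± 0.28 SE, adjusted p = 0.273 in edgeR). SYTL3, another RAB27 effector, stood at 0.275, 0.670 and 0.660 CPM and at 0.735, 1.78 and 0.956 CPM (1.04 ± 0.49, adjusted p = 0.607 in edgeR). For both genes the groups did not overlap. SYT15B also had siPDCD4 above siCT in all libraries, at 0.17 ± 0.17, so that this was so for 3 of the 7, beside 6.81% of all genes tested. However, SYT15 and SYT15B are close copies of one another, so the division of reads between them is uncertain. SYT14 (0.36 ± 0.37), SYT15 (-0.06 ± 0.32), SYT17 (0.04 ± 0.37) and SYTL4 (-0.07 ± 0.17) overlapped between groups.

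**Figure D5:**
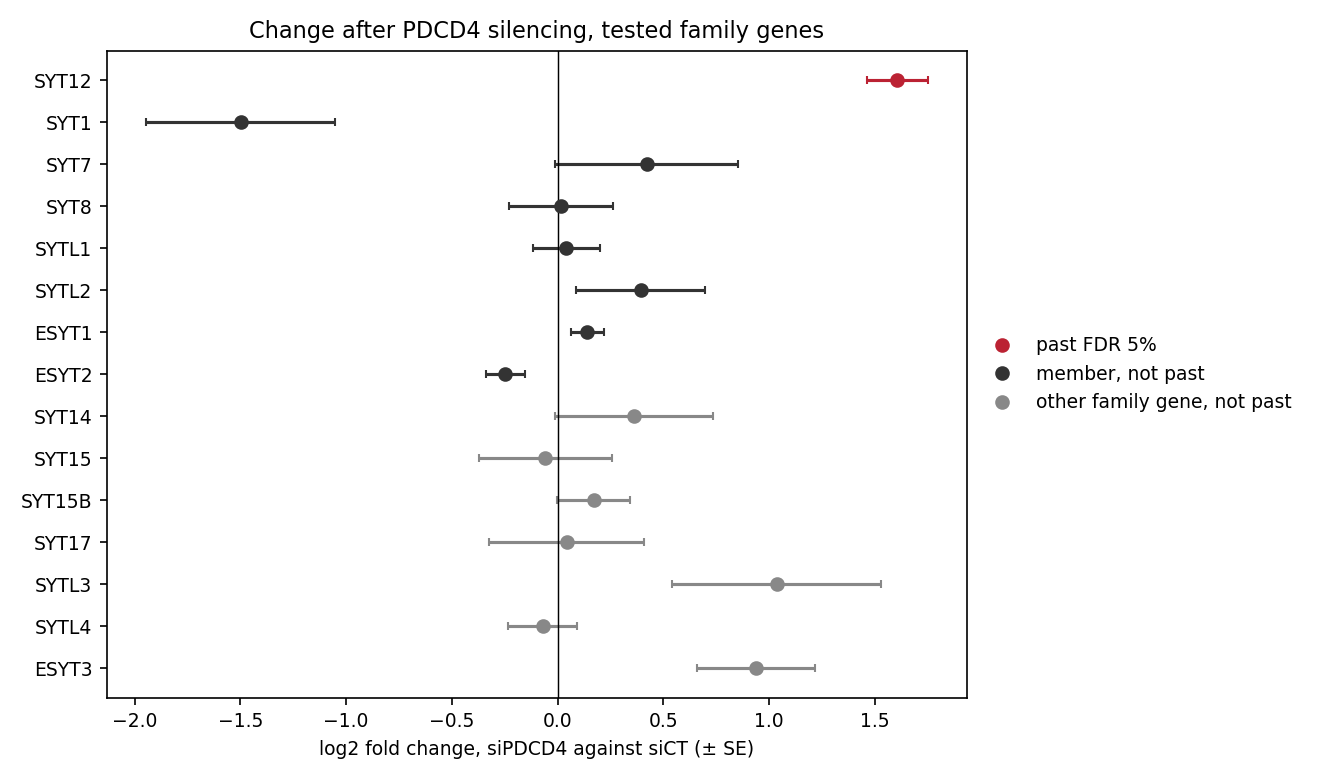
Log2 fold change, siPDCD4 against siCT, with its SE for the 8 fitted members and the 7 other fitted genes of the families (red, past an FDR of 5%; black, other members; grey, other family genes). SYT12 at 1.60 is the point past the threshold, and SYT1 at -1.50, SYTL3 at 1.04 and ESYT3 at 0.94 lie far from 0 with wider errors.

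The machinery around these proteins was followed in 5 more lists, and together with the other family genes 114 genes in 6 lists were fitted. None passed an FDR of 5% in edgeR, beside 0.429% of all genes tested. DESeq2 called 1 of the 114 and 181 over all genes, and limma-voom called none of them and 50 over all genes. At an unadjusted p under 0.05 in edgeR there were 11, from which nothing is read without the share over all genes. Groups did not overlap for 23 of the 114, beside 13.9% of all genes, 51 of the 114 had a log2 fold change above 0, and the median was -0.03.

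C2-domain calcium sensors and priming factors, among them the UNC13 proteins and ferlins, had 10 fitted genes, of which 9 had a log2 fold change below 0, with a median of -0.16. The most abundant were UNC13B, which primes vesicles for fusion (-0.16 ± 0.09), and MYOF, a ferlin of the plasma membrane (-0.11 ± 0.08), and for both every siPDCD4 library was below every siCT library.

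The RAB27 and secretory RAB list had 11 genes above and 12 below 0, with a median of -0.0073. Groups did not overlap for 5 of its 23 fitted genes, all with siPDCD4 below siCT, beside 7.14% of all genes tested. RAB10, a GTPase of exocytic vesicles, stood at 0.05 ± 0.08, and RAB3GAP2, a subunit of the RAB3 GTPase-activating complex, at -0.08 ± 0.09. Of 36 SNAREs and regulators, 12 were above and 24 below 0, with a median of -0.04. STX6, a SNARE of the trans-Golgi network and endosomes, stood at 0.19 ± 0.09 with siPDCD4 above siCT in all libraries, and STXBP5, an inhibitor of SNARE assembly, at -0.18 ± 0.10 with overlapping groups.

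Among 27 fitted contact-site proteins, 13 were above and 14 below 0. GRAMD2A, a marker of contacts between the endoplasmic reticulum and the plasma membrane, where extended synaptotagmins also act, had the lowest adjusted p of all 114 genes. It stood at 5.42, 5.63 and 7.59 CPM in siCT and at 3.38, 2.68 and 3.16 CPM in siPDCD4, with a log2 fold change of -1.0 ± 0.23 (adjusted p = 0.130 in edgeR), and it was the gene that DESeq2 called. The 2 most abundant contact-site genes stood near 0. These were VAPA, an anchor in the endoplasmic reticulum, at 0.0019 ± 0.10 and the lipid exchanger OSBPL8 at 0.07 ± 0.09. In the list of 27, groups did not overlap for 2 genes with siPDCD4 above, beside 6.81% of all genes tested. They did not overlap for 4 with siPDCD4 below, beside 7.14% of all genes tested. Of the 11 exocyst and RAL genes, 9 were above 0 with a median of 0.04, and the tethering subunits EXOC4 and EXOC5 stood at -0.06 ± 0.09 and 0.05 ± 0.09.

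The genes next to SYT12 were examined for differences of their own. All 4 fitted genes within 100 kb failed an FDR of 5% in edgeR, as well as in DESeq2 and limma-voom. An unadjusted p under 0.05 in edgeR was seen for 2, from which nothing is read without the share over all genes. RHOD, which starts 5984 bases beyond SYT12, stood at 37.0, 44.6 and 34.4 CPM in siCT and at 53.7, 58.1 and 43.5 CPM in siPDCD4, with a log2 fold change of 0.42 ± 0.14 (adjusted p = 0.343 in edgeR) and overlapping groups. PC, the gene of pyruvate carboxylase, lies 48392 bases before SYT12 and had non-overlapping groups with siPDCD4 higher (0.31 ± 0.11, adjusted p = 0.381 in edgeR). C11orf86 stood at 0.74 ± 0.42 and the histone demethylase gene KDM2A at -0.05 ± 0.12. These differences were smaller than the 1.60 of SYT12. Of the members, SYT7, SYT8 and SYTL2 are also on chromosome 11, but megabases away from SYT12, and none of them passed the threshold.

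The 5 genes whose log2 CPM followed SYT12 most closely over the 6 libraries, of 12248 compared, were PHLDA1 (Pearson r = 0.996), RABL2B (0.991), AMOTL1 (0.991), SPARC (0.990) and SOWAHC (0.989). With 6 libraries in separate groups these values chiefly reflect the step between groups and are a description. PHLDA1, which encodes a pleckstrin homology-like domain protein, stood at 129.9, 134 and 132 CPM in siCT and at 208, 201 and 225 CPM in siPDCD4. Picked for its likeness to SYT12, it shared the narrow range in siCT and the highest value in siPDCD4 replicate 3, with a smaller log2 fold change of 0.68 ± 0.08. SPARC, a matricellular glycoprotein, stood at 0.63 ± 0.09.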

How the data were processed

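Total RNA was sequenced as stranded, paired reads in 6 libraries. The authors ran Salmon (version not given in the sources used here) against GRCh38 transcripts and deposited, per library, estimated counts and TPM values per transcript. Here 181244 of 194142 transcripts had an identifier in GENCODE release 44 (GRCh38) and were summed to 34486 genes. The 12898 others (5.47% to 6.21% of counts) were not analysed here. Rounded counts were tested with edgeR 4.0.16 in R 4.3.3 (robust quasi-likelihood, TMM, filterByExpr, offset for average transcript length), group as the factor, with Benjamini-Hochberg adjustment over 13047 genes. Transcripts were fitted without the offset. CPM uses TMM and the offset, and gene TPM is the sum over transcripts. On simulated data with 200 changed genes in this comparison edgeR found 87% of those with a log2 change of 1 and 98% of those with 2, and 5.61% of its calls were false. The simulation gave all genes the same spread and the same length and changed only genes above a minimum mean count. These rates therefore need not hold for the real libraries, nor for genes with few counts. Alternatives used DESeq2 1.42.0 and limma 3.58.1, other scalings, filters and offsets, a replicate block, and each library left out. Patterns over libraries used log2(CPM + 0.5) of genes with a mean of at least 1 CPM. The named genes were the members and PDCD4, the other fitted family genes, per companion list those called and the 2 most abundant (GRAMD2A was named after its values were seen), the neighbours of SYT12 within 100 kb and the 5 genes of most similar pattern. One further marker of the haematopoietic list is not reported here. Members and lists were chosen with earlier results of these data known. Figures were drawn with matplotlib 3.10.9.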

Additional observations from a re-analysis of the deposited data

How the results depend on the processing

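The log2 fold change of SYT12, the value that chose it, lay between 1.45 and 1.69 in the 14 alternatives. The members past an FDR of 5% were 2 without the length offset (SYT12 and ESYT2) and 1 otherwise. Of the companion genes, 1 passed in DESeq2 and 1 without the length offset (GRAMD2A in each), and none otherwise. Over all genes, the 56 calls became 181 in DESeq2, 128 without the length offset, 108 with no filter on low counts and 102 with a replicate block, and leaving out each library gave 17 (without siPDCD4 replicate 1) to 40, with 32 for siCT replicate 2, 22 for siPDCD4 replicate 2 and 30 for siPDCD4 replicate 3 left out. Whether replicate numbers pair libraries was not settled. Deviations from the group means correlated at 0.0717, 0.117 and 0.183 for libraries of the same number. For libraries of different numbers the values were -0.193 to 0.102. The siPDCD4 replicate 1 library correlated best with siCT replicate 2 (0.102). The block kept all 56 calls and changed no call of a member. Signs turned for log2 fold changes that no fit called. SYT8 came to -0.043 in limma-voom and -0.029 with the replicate block, and without the length offset SYT14 came to -0.0057, SYT15 to 0.16, EXOC5 to -0.14 and KDM2A to 0.023. Leaving out single libraries gave -0.11 (without siCT replicate 1) to 1.01 for SYT7, -0.18 to 0.29 for SYT8, -0.085 to 0.16 for SYTL1, -0.23 to 0.22 for SYT15, -0.14 to 0.18 for SYT17, -0.13 to 0.0036 for SYTL4, -0.083 to 0.055 for VAPA, -0.0040 to 0.11 for EXOC5 and -0.13 to 0.062 for KDM2A. By TPM the share of SYT12 in SYT12-205 was 75.3% in siCT and 76.9% in siPDCD4. The causes were not tested. SYT1, SYT7 and SYT11 had at most 32 counts in any library, which limits the precision of their values.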
